A study of Drosophila melanogaster with 2 samples.

Results

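Of 7001 Sob peaks on the main chromosome arms, 734 (10.5%, 95% Wilson interval 9.79 to 11.2) had their summit in an intron and far from any start of transcription. Such a summit lay within an annotated gene but outside every exon, over 1 kb from all transcription start sites (TSSs) and over 5 kb from those of protein-coding genes. They are called far intronic summits here. The peaks came from chromatin immunoprecipitation and sequencing (ChIP-seq), which maps where a protein sits on DNA. The embryos were of the transgenic strain sob-GFP, whose insertion targets sob and which makes the protein fused to enhanced green fluorescent protein (eGFP). The labels describe the precipitation as done with an antibody to GFP, and their antibody field names sob, the tagged protein. Whole embryos were collected at ages from 0 to 24 h, so the tissue or stage that gave a peak is not known. Chromatin was sheared by sonication to between 200 and 800 bp, the labels name a possible control experiment, and 1 group with 2 biological replicates was measured with no other condition. The replicates could therefore be compared only with each other, and the far intronic summits only with other peaks and with the genome. Peak signal is the authors' value per peak in units with no stated scale, and the number of reads behind it is unknown. Intervals cover counting error over peaks only, and peaks are not replicates of a condition.

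Sob belongs, with Odd, Drm and Bowl, to a family of zinc-finger regulators of transcription that act in patterning, gut and leg development of the fly. In Drosophila, introns of developmental genes often hold enhancers, which are stretches of DNA that bind transcription factors and raise the transcription of a promoter at a distance. Long introns that lie before or between the coding exons are known as places where such elements gather, but a ChIP-seq peak there does not by itself show an enhancer.

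The DNA at far intronic summits ranged widely in base content, from 14.9% to 44.6% G and C in the windows printed here. Each reaches 50 bp to either side of a summit and comes from RefSeq's copy of genome release 6, plus strand, read 5′ to 3′. The first 6 are from the 13 strongest members, and the last 2 are shown because they hold the 7-mer with the highest score over flanks. Capitals mark matches, on either strand, to any of the 16 motifs searched, to the 10 leading 7-mers over all members, or to the 7-mer AAATAGT that led among the 183 strongest. The 7-mers were chosen after their counts were seen. The first 6 windows are a selection, so they do not show how common a match is. AAATAGT was at 18 of the 183 strongest summits (9.84%). The windows at Tis11 (575.9), at Mi-2 and Su(Tpl) (561.4) and at the strongest rdx summit (547.1) are not printed. They rank above that of JIL-1 by signal and hold no AAATAGT. The printed windows are chr3L:3060741-3060841 in CG32486, chr3L:10682877-10682977 in simj, chr3L:8458272-8458372 in Gug and chrX:2300643-2300743 in Raf. They continue with chrX:1963869-1963969 in Hr4, chr3L:11084716-11084816 in JIL-1, chr3R:13999731-13999831 in rdx and chr3L:18009086-18009186 in Eip75B.
CG32486: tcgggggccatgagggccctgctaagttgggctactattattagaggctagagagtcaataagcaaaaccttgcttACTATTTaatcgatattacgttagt
simj: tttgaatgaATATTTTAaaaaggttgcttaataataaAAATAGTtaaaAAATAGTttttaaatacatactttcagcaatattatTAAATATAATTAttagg
Gug: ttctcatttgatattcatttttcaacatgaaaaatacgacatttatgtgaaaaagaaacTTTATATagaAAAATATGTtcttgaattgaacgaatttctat
Raf: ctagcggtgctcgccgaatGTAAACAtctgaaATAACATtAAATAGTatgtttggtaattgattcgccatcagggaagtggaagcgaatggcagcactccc
Hr4: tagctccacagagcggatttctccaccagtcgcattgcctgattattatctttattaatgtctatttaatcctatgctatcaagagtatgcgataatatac
JIL-1: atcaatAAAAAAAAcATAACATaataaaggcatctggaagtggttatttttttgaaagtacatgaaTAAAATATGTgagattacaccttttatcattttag
rdx, weaker summit: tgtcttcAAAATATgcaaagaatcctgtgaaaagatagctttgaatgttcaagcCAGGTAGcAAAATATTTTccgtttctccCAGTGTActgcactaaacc
Eip75B: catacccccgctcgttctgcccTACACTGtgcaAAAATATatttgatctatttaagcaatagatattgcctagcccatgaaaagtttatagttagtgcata
The simj window held 14.9% G and C, with AAATAGT at 2 places. The Raf window held 44.6%, with a single AAATAGT next to ATAACAT, and a forkhead-type TGTTTAC. In the CG32486 window AAATAGT was the only match. The Hr4 window had no match in capitals at all. CAGTGTA, or TACACTG on the other strand, was in the rdx and Eip75B windows.

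The strongest far intronic peak lay in CG32486, and genes of nuclear receptors and transcriptional corepressors were among the next. The CG32486 peak (chr3L:3060642-3060949) had a signal of 1235.3 in the main list, at place 59 of 7001, with 696.7 in replicate 1 and 540.9 in replicate 2. The peak in Hr3, a nuclear receptor of the ecdysone cascade, had 888.9 (478.4 and 401.0 in replicates 1 and 2), and it also lay in the overlapping genes CG12912 and CG46321. In simj, which encodes a p66-like subunit of the NuRD chromatin remodelling complex, the highest summit had 708.3 (401.5 and 283.2). Gug, the Atrophin corepressor gene, had 697.4 (418.6 and 282.3). All of these were higher in replicate 1 than in replicate 2.

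In sbb (scribbler or brakeless, a nuclear corepressor) the highest summits had 662.8 (376.6 in replicate 1 and 295.2 in replicate 2) and 638.7 (224.0 and 409.1), the latter higher in replicate 2. Raf, the kinase between Ras and the MAP kinase cascade, had 635.3 (371.7 and 259.8), and the nuclear receptor gene Hr4 had 604.6 (382.9 and 213.2). Tis11, whose product promotes decay of mRNAs, had 575.9 (306.4 and 264.3). A summit shared by the overlapping genes Mi-2, the NuRD ATPase, and Su(Tpl), an elongation factor of the ELL family, had 561.4 (317.8 and 240.6). The strongest summit of rdx (roadkill, a ubiquitin ligase adaptor that acts on the Hedgehog effector Ci) had 547.1 (293.9 and 242.7). JIL-1, a histone kinase, had 540.7 (268.7 and 253.4). S (Star), needed for traffic of ligands of the EGF receptor, had 471.0 (179.6 and 282.2). Further members of the strongest 20 were in the non-coding gene lncRNA:CR44810 (635.2), in wdb, a phosphatase subunit (478.2), and in sick (476.9) and Lrch (475.5). All 20 overlapped a peak in both replicates' own lists.

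By number of summits, sbb and kirre led with 10 each, but their introns differ in length. Intron is called eligible where a summit would meet the rule. In sbb 10 summits lay in 35.56 kb of eligible intron, or 28.1 per 100 kb (exact Poisson 95% interval 13.5 to 51.7), all in intron 1 and upstream of the coding start. In kirre, which encodes an immunoglobulin-type adhesion protein of myoblast fusion, 10 lay in 231.7 kb, or 4.32 per 100 kb (2.07 to 7.94). With equal counts, these densities differ as the eligible lengths do, and the intervals take summits as independent although 7 of those in sbb lay within 11155 bp. The density over all eligible intron was 2.41 per 100 kb (2.24 to 2.59).

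The sbb summits had main-list signals from 87.4 to 662.8 with a median of 244.0, and 6 of 10 were in both own lists. Those of kirre ran from 94.3 to 228.8 with a median of 153.7, and 3 of 10 were in both. In kirre, 4 further summits were in the own list of replicate 1 alone, with 104.3, 106.9, 104.8 and 112.1 in replicate 1 against 46.1, 56.2, 45.3 and 53.8 in replicate 2. No summit of kirre was in the own list of replicate 2 alone.

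**Figure D1:**
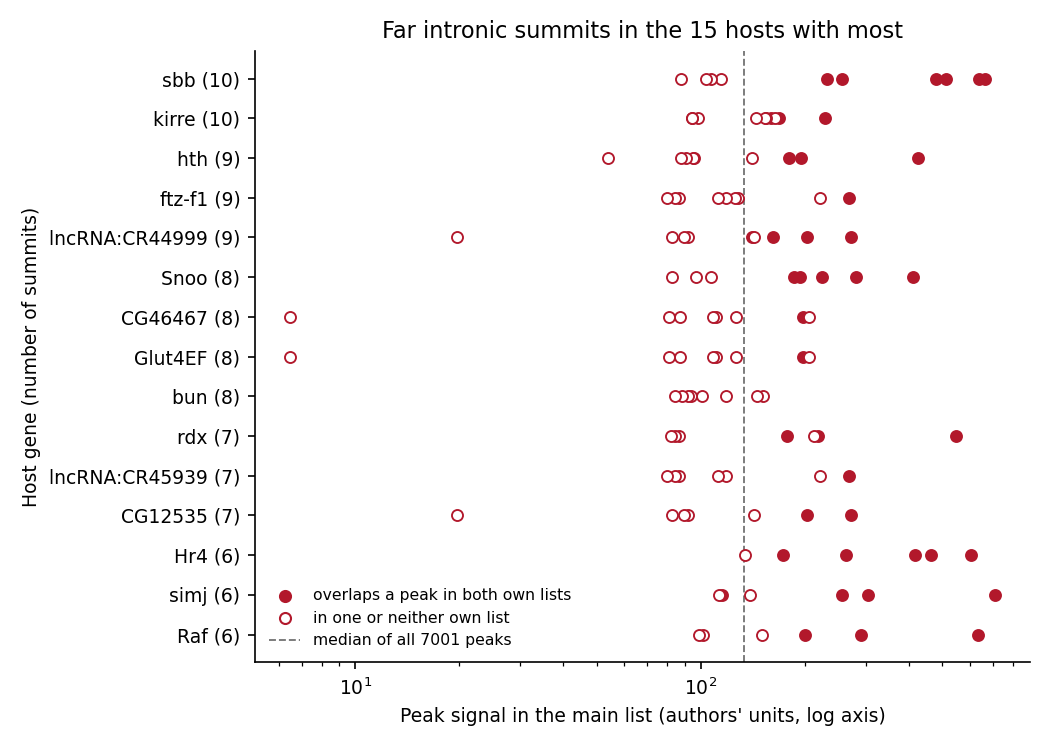
Main-list signal (log axis) of each far intronic summit in the 15 host genes with most summits, one point per summit; filled points overlap a peak in both replicates' own lists and the dashed line is the median of all 7001 peaks, 133.4. In sbb 6 of 10 points are filled, in Hr4 5 of 6 and in bun 0 of 8.

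Transcription factor genes followed. hth, which encodes the Meis-type homeodomain partner of Extradenticle, had 9 summits in 105.3 kb (8.55 per 100 kb, 3.91 to 16.2). Of these, 8 lay in 6 introns of its canonical transcript and 1 outside them. Its strongest had 426.6 (226.6 and 200.0 in replicates 1 and 2), and the lowest 53.9 (18.9 and 35.0). The member most distant from a coding TSS, at 85956 bp, was also in hth. ftz-f1, an orphan nuclear receptor gene of the ecdysone response, had 9 in 29.52 kb (30.5 per 100 kb, 13.9 to 57.9). Its strongest had 267.8 (91.7 and 176.0) and the next 220.8 (132.0 and 89.3), so the replicates ordered them differently. Of the 9, 1 was in both own lists. The non-coding lncRNA:CR45939 lies within ftz-f1 and holds 7 of the same summits.

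Snoo, of the Ski/Sno corepressor family, had 8 summits, all in intron 1, from 82.3 to 410.1, with 5 in both own lists. Hr4 had 6, with signals of 604.6, 463.3, 416.7, 263.9, 173.3 and 134.5. In replicate 1 these had 382.9, 234.1, 242.4, 164.4, 92.6 and 46.4, and in replicate 2 213.2, 233.4, 164.4, 101.6, 70.9 and 85.9. All but the weakest were in both own lists. Glut4EF and the overlapping CG46467 shared 8 summits, of which 1 was in both own lists. The lowest of their peaks (6.48) overlapped a stronger main-list peak. In bun, a growth regulator of the TSC22 family, 0 of 8 summits were in both own lists and 4 were not found in the ranked list of replicate 1 at all. Their signals in replicate 2 were 79.9, 56.3, 49.9 and 108.9. The other hosts of the leading 15 were lncRNA:CR44999 with 9 and CG12535, which overlaps it, with 7, rdx with 7, and simj and Raf with 6 each.

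By summits per 100 kb of eligible intron, a measure that favours short introns, simj led the hosts with at least 5 summits, with 6 in 15.34 kb (39.1 per 100 kb, 14.4 to 85.1), all in intron 1 and spread over 5292 bp. Its signals were 303.8, 113.0, 115.2, 708.3, 256.5 and 138.9 along the gene. The peaks of 708.3 and 256.5 overlapped the same replicate peaks, so they do not count as separate there. B4 had 5 in 14.83 kb (33.7 per 100 kb), all 5 in both own lists, with signals of 141.9, 10.4, 260.3, 184.4 and 119.1. The peak of 10.4 overlapped that of 141.9 and had the same values in each replicate, 63.0 and 78.5. Raf had 6 in 20.32 kb (29.5 per 100 kb) with 635.3, 200.7, 290.3, 99.0, 101.4 and 150.8. ftz-f1 (30.5 per 100 kb) stands between B4 and Raf in this order. After Raf came lncRNA:CR45939 with 29.2, sbb with 28.1, CG8312 with 23.9, bun with 23.2, pnt (an ETS factor of EGF receptor signalling) with 21.1 and rdx with 20.5. Of these 10 hosts, 7 are also among the 15 with most summits.

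In all, 393 genes hosted a member, of which 373 were protein-coding. Coding hosts with 1 summit numbered 200, with 2 there were 86, with 3 there were 40, with 4 there were 23 and with 5 or more 24. Of the members, 19 had no coding host and 30 lay in more than 1 coding gene. Among 1435 coding genes with at least 1 kb of eligible intron, 372 (25.9%) hosted a member. Hosts were longer, with a median of 20.2 kb of eligible intron against 7.60 kb for the others. The share that hosted rose from 8.48% of 448 genes with 1 to 5 kb to 53.8% of 169 genes with over 40 kb.

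Host genes also had a Sob peak at their own promoter more often. A promoter peak, with a summit within 1 kb of a TSS of the gene, was found at 239 of 372 hosts (64.2%) and at 367 of 1063 other genes with eligible intron (34.5%), a difference of 29.7 percentage points (Newcombe 95% interval 23.9 to 35.2). Among genes with 1 to 5 kb of eligible intron the shares were 63.2% of 38 hosts and 43.2% of 410 others, and with over 40 kb they were 67.0% of 91 and 17.9% of 78. Hosts were above the others in the length ranges between these too (62.5% and 29.2% from 5 to 10 kb, 64.4% and 34.0% from 10 to 20 kb, 62.9% and 28.1% from 20 to 40 kb). hth, sbb, Snoo and simj had such a promoter peak, and kirre and Hr4 did not.

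Genes of the ecdysone response and temporal identity hosted far intronic summits in 10 of 15 cases with eligible intron (66.7%), against 25.9% of all such coding genes. They held 30 summits in 449.2 kb, or 6.68 per 100 kb (4.51 to 9.53), led by ftz-f1 with 9, Hr4 and Eip75B with 6 each and Eip74EF with 2. The list's median eligible length was 29.5 kb, longer than that of hosts in general. Among all coding genes with 20 to 40 kb of eligible intron 38.8% were hosts, with 3.15 summits per 100 kb. The interval of the list's density takes summits as independent, although 7 of those in ftz-f1 lay within 9409 bp. Eip75B, an ecdysone-induced nuclear receptor gene, had 350.1 (160.3 and 195.4 in replicates 1 and 2) and 302.8 (160.1 and 134.3) at its strongest summits, both in both own lists. Eip74EF, an ETS factor gene, had 122.5 and 112.3, in both own lists in 0 of 2 cases. Among the other hosts of this list, chinmo, Eip78C and Hr39 also had 0 summits in both own lists. The single summits of Eip78C (106.0) and Hr39 (94.4) were in neither own list. These 3 genes are named after their values were seen. In both own lists were 1 of 9 summits of ftz-f1, 5 of 6 of Hr4 and 2 of 6 of Eip75B. The share of hosts thus counts genes without support from both replicates. The ecdysone receptor gene EcR, chosen after its values were seen, had a single summit of 428.6 (216.0 and 215.3).

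Signalling and polarity genes are described next. Among all coding genes, those with 5 to 10 kb of eligible intron had 3.99 summits per 100 kb and those with 10 to 20 kb had 3.65, the ranges that hold the median lengths of the polarity (7.65 kb) and signalling (11.8 kb) lists. Both values lie within the intervals of these lists, and 20.6% and 30.4% of the genes in these ranges were hosts. Of 21 signalling genes 10 were hosts (47.6%), with 5.67 summits per 100 kb (3.51 to 8.66). fz, a Wnt receptor gene that also acts in planar polarity, had 4 summits of 185.3, 324.5, 263.1 and 162.3, all 4 in both own lists. In replicate 1 these had 107.5, 201.8, 131.0 and 85.0, and in replicate 2 90.0, 112.0, 121.5 and 76.3. shn, which acts in Dpp signalling, also had 4, of which 0 were in both own lists, the Dpp receptor gene tkv 3 and the Wnt antagonist nkd 2. The lowest peaks of shn (8.67) and tkv (22.3) overlapped a stronger main-list peak. Of 11 polarity and Hippo pathway genes 6 were hosts, with 7.04 per 100 kb (3.75 to 12). wts, the Hippo pathway kinase gene, had 3 summits of 194.6, 243.3 and 95.4 in 6.20 kb. The cell polarity gene scrib and the Hippo regulator kibra had 3 each and sdt had 2.

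Selector and chromatin genes had hosts as well, beside 25.9% of all coding genes with eligible intron. Of coding genes with 5 to 10 kb of it 20.6% were hosts, with 3.99 summits per 100 kb. With 10 to 20 kb these values were 30.4% and 3.65. The median of the chromatin list (8.51 kb) is in the former range. Those of the selector (13.2 kb), Hox (12.8 kb) and muscle (10.4 kb) lists are in the latter. The density of its range lies within the interval of each list. Of 16 limb and eye selector genes 6 were hosts (37.5%, 5.14 per 100 kb, 3.09 to 8.02), with hth at 9, bab2 at 3, and bab1 and Lim1 at 2. Of 17 chromatin and transcription regulators 7 were hosts (41.2%, 4.71 per 100 kb, 2.51 to 8.05), led by tai, an ecdysone receptor coactivator gene, with 4, jing with 3 and trx, the Trithorax gene, with 2, while Psc of the Polycomb group had 1. Of 11 Hox and segmentation genes 3 were hosts (27.3%, 2.45 per 100 kb, 0.901 to 5.34). The Hox gene Antp had 4 summits, of 146.6, 129.9, 186.6 and 176.6, in intron 1, and inv and knrl had 1 each. Muscle and cytoskeletal genes had 3 hosts of 13 (23.1%, 2.65 per 100 kb, 0.723 to 6.79), namely shot with 2 and Zasp52 and Tm1 with 1 each.

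The lists of adhesion and guidance, RNA-binding and ion channel genes, with long introns, were not especially rich in summits. Of 31 adhesion and guidance genes 13 were hosts (41.9%), but their 36 summits lay in 1429 kb, at 2.52 per 100 kb (1.76 to 3.49), near the overall 2.41. Their median eligible length was 29.5 kb, and coding genes with 20 to 40 kb had 3.15 per 100 kb, with 38.8% hosts. After kirre came the semaphorin gene Sema1a with 6, the netrin gene NetA with 4 and the teneurin gene Ten-a with 3. RNA-binding protein genes had 8 hosts of 15 (53.3%) at 1.54 per 100 kb (0.860 to 2.53), led by the translational repressor gene pum with 5, then how, msi and heph with 2. The lowest peaks of pum (14.5) and how (3.60) overlapped a stronger main-list peak. The median eligible length of the RNA-binding list was 54.6 kb, and coding genes with over 40 kb had 1.52 per 100 kb, with 53.8% hosts. That range includes the 5 genes with most eligible intron, which held 3.823 Mb of it and 0 members. They lower its density, which was not computed without them. The overall density without them was 2.75 per 100 kb. Ion channel and transmitter receptor genes had 2 hosts of 19 (10.5%), the calcium channel gene Ca-alpha1T with 2 summits and the potassium channel gene Shal with 1. Their density of 0.471 per 100 kb (0.0972 to 1.38) was below the interval of the overall density, with a median eligible length of 30.7 kb, close to that of the ecdysone list. In the odd-skipped family only drm had any eligible intron, 1.263 kb, with no summit. odd, sob and bowl had none, and no gene of 88 for ribosomal proteins had as much as 1 kb of it or held a summit. The counts describe these lists and are no test of them.

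The genes with most eligible intron had no summit. Myo81F (1945 kb), Pzl (697.4 kb), lovit (424.3 kb), CG17684 (384.6 kb) and DIP-lambda (371.8 kb) together held 3.823 Mb of it and 0 members. For Myo81F a count of 0 allows up to 0.154 per 100 kb, taking 3 counts as the limit. This limit, like the densities, takes every eligible base as open to a peak call. Whether reads could be placed over all of the introns of these genes was not examined. A count of 0 there does not by itself show that Sob is absent. The next longest without one were the RNA-binding gene bru3 (242.3 kb), Snap25, a synaptic vesicle fusion gene (215.9 kb), and l(3)80Fg (206.1 kb). None of these 8 had a promoter peak either. They were named after their counts were seen. Without the 5 longest the density was 2.75 per 100 kb (2.56 to 2.96).

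Density fell with distance from the nearest coding TSS. Intronic summits numbered 7.61 per 100 kb (6.94 to 8.34) at 1 to 2 kb and 4.84 (4.45 to 5.25) at 2 to 5 kb. Past the limit they numbered 3.74 (3.38 to 4.13) at 5 to 10 kb, 2.49 (2.17 to 2.83) at 10 to 20 kb, 1.93 (1.56 to 2.36) at 20 to 40 kb and 0.345 (0.214 to 0.528) beyond 40 kb, where 21 summits lay in 6.081 Mb. Without the 5 longest genes the last value was 0.863 (0.534 to 1.32), and the 3 before it were 3.75, 2.50 and 1.97. Median signal did not follow the same order, at 121.7, 118.1, 143.5 and 124.2 over the ranges past 5 kb. Intergenic DNA had 1.83 summits per 100 kb (1.69 to 1.98) and promoters 14.0 (13.6 to 14.4).

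**Figure D2:**
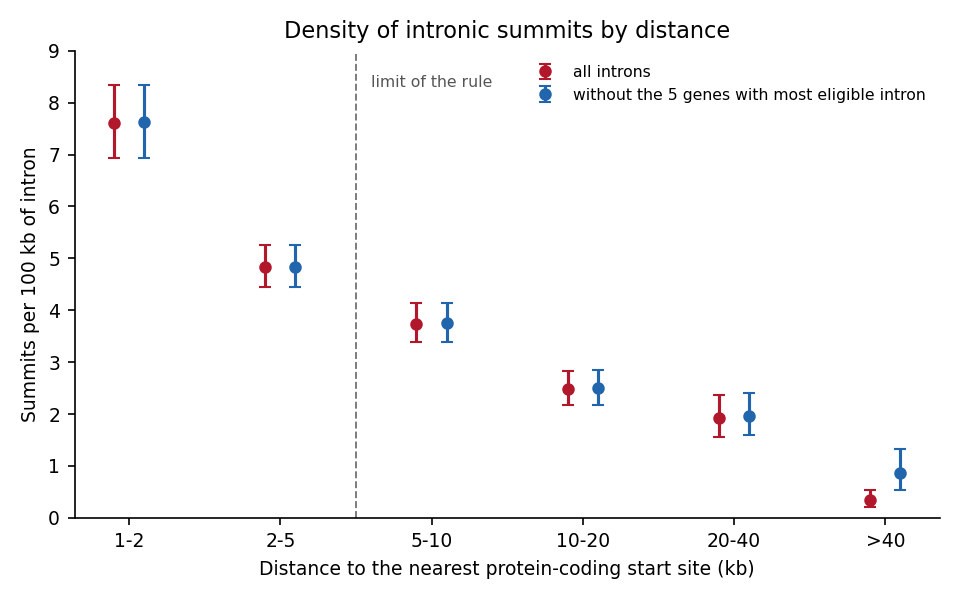
Summits per 100 kb of intron (points, with exact Poisson 95% intervals) by distance to the nearest protein-coding TSS, over all introns and without the 5 genes with most eligible intron. Density fell from 7.61 at 1 to 2 kb to 0.345 beyond 40 kb, or 0.863 without those genes.

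Members lay 5004 to 85956 bp from the nearest coding TSS, with a median of 9480 bp, and 520 (70.8%) were downstream of it. For 479 (65.3%) that TSS belonged to a host gene. A summit inside a gene lies downstream of a start of that gene, so both shares are partly fixed by the rule. The same shares over eligible bases were not computed. Just inside the limit of the rule were summits nearest to lilli (5004 bp, signal 85.6), tara (5013 bp, 438.4) and nuf (5039 bp, 97.4), and just outside it those nearest to CG46339 (4999 bp, 167.0), Gug (4995 bp, 249.6) and DopEcR (4995 bp, 73.1). Within 500 bp of the limit, 49 summits inside it had a median signal of 127.8 and 76 outside it 137.1. Of 665 members in an intron of a host's canonical transcript, 217 (32.6%, 29.2 to 36.3) were in intron 1, which held 20.3% of the eligible bases of such introns. Of all members 237 (32.3%) lay upstream of the first codon of their longest coding host. The introns were long, with a median of 19.3 kb.

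By chromosome arm, the density was 3.18 per 100 kb on 2L (2.69 to 3.74), 2.94 on X (2.51 to 3.43), 2.38 on 3L, 2.05 on 2R and 1.97 on 3R (1.69 to 2.28). Without the 5 genes with most eligible intron, of which Myo81F and Pzl are on 3R, it was 2.80 on 3R (2.40 to 3.25), 2.40 on 2R and 2.56 on 3L. Those on 2L and X did not move, and the intervals of 2L, X and 3R then overlapped. Chromosome 4 had 0 members in 0.2889 Mb (exact Poisson interval 0 to 1.28 per 100 kb), and 3 counts there would be 1.04 per 100 kb. On X, 104 of 166 members (62.7%) were in the own list of replicate 1 and 77 (46.4%) in that of replicate 2. The share in the own list of replicate 1 was also the larger on 2L and 3R, and the smaller on 2R and 3L. Such shares were not computed over all peaks of an arm, and those of the members carry no interval. Whether the gap on X is particular to far intronic summits was not tested.

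Of 734 members, 343 (46.7%, 43.1 to 50.3) had another within 5 kb. Counted within each class, the share was 42.5% of near intronic, 37.0% of intergenic and 58.8% of promoter summits, and over all peaks it was 66.3%. Chained at that distance they formed 528 stretches, of which 391 held 1 member, 95 a pair, 25 held 3, and 17 held 4 or more with 78 members in all. Next to 6 in simj and 5 each in B4 and CG12535, the longest runs were 7 in sbb over 11155 bp with signals from 103.4 to 662.8, and 7 in ftz-f1 over 9409 bp with signals from 79.6 to 267.8. In sbb 5 of 7 were in both own lists and in ftz-f1 1 of 7. The 12 stretches of 4 lay in Raf, rdx, Hr4, hth, kirre, shn, pnt, CG8312, eIF5B, Nrg and cv-c, and in the overlapping CG45088 and CG6191. Of these genes eIF5B (a translation factor), Nrg (neuroglian, an adhesion protein), cv-c (a RhoGAP), CG45088 and CG6191 were chosen after their values were seen. Members of a stretch share chromatin and are not independent, so a count of summits per gene is not a count of separate events.

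Far intronic peaks were supported by both replicates less often than promoter peaks. Of 734, 260 (35.4%, 32.0 to 39.0) overlapped a peak in both own lists, against 43.4% of all 7001 peaks, 37.4% of intronic summits at 1 to 5 kb, 39.1% of intergenic ones and 47.6% of promoter ones. The difference from promoters was -12.2 points (Newcombe 95% interval -15.9 to -8.38). Those from near introns, -1.99 points (-6.50 to 2.57), and from intergenic summits, -3.70 points (-8.87 to 1.47), had intervals that include 0. By replicate, 421 (57.4%) overlapped the own list of replicate 1 and 376 (51.2%) that of replicate 2, with 161 in the former alone, 116 in the latter alone and 197 (26.8%) in neither. Over all peaks 60.2% overlapped the own list of replicate 1, 61.5% that of replicate 2 and 21.7% neither. In replicate 2 far introns were 6.34 points below near introns (-11.0 to -1.64). In replicate 1 the difference from near introns was 2.87 points (-1.82 to 7.53). From intergenic summits it was -6.28 points (-11.4 to -1.04) in replicate 1 and 1.06 points (-4.28 to 6.4) in replicate 2. Intergenic summits were also more often in the own list of replicate 1 (63.6%) than of replicate 2 (50.2%). For near introns these shares were 54.5% and 57.6%, and for promoters 62.5% and 66.7%.

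Main-list signals of far intronic peaks ran from 2.31 to 1235.3 with quartiles of 95.4, 121.9 and 179.7, against a median of 133.4 for all peaks. Of them 318 (43.3%) were above that median, which 50% of all peaks exceed. The far intronic share minus that of promoters was -10.2 points (-14.0 to -6.31), and minus that of near introns -2.38 points (-7.05 to 2.32). In the own list of replicate 1 taken alone the latter difference was -6.24 points (-12.1 to -0.294), an interval without 0, and in that of replicate 2 it was -3.25 (-9.32 to 2.89). Among the 250 strongest peaks were 8 members (1.09%), against 3.57% of all peaks, 1.83% of near intronic and 1.95% of intergenic ones. The differences from near introns, -0.742 points (-1.89 to 0.492), and from intergenic summits, -0.858 points (-2.38 to 0.477), had intervals that include 0. Of 24 members with a signal under 40, all 24 overlapped a stronger main-list peak, and 23 had higher values than that in both replicates from the replicate peak at the same place. Whether the main-list values under 40 are on the scale of the others is not known, and all of them fall in the weakest of 4 groups by signal.

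In each replicate's longer ranked list, a peak was found at 706 members in replicate 1 and at 720 in replicate 2, with 692 in both. Signals there had quartiles of 45.2, 63.4 and 97.8 in replicate 1 and 49.8, 65.3 and 93.3 in replicate 2. The values were within 2-fold of each other for 558 of 692 (80.6%), more than 2-fold higher in replicate 1 for 53 and in replicate 2 for 81. Across these peaks, which are no independent replicates and share the same 2 libraries, Spearman's rho was 0.46, against 0.56 over 984 near intronic, 0.58 over 557 intergenic and 0.66 over 4187 promoter peaks. These are descriptions without a test.

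**Figure D3:**
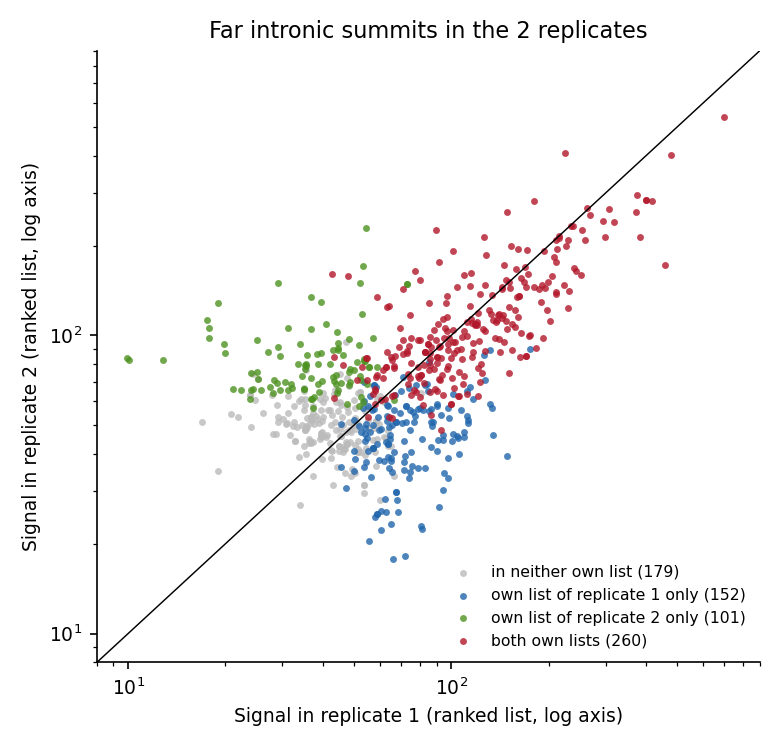
Signal of 692 far intronic summits in the ranked list of replicate 1 against that of replicate 2 (both axes logarithmic, with the line of equal values), coloured by the own lists they overlap. The 260 in both own lists include the highest value in each replicate, and the 179 in neither all lie below 100 in each.

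Main-list signal and the own lists come from the same 2 libraries, so the following shares are a description. Ranked by signal into 4 groups, the strongest far intronic peaks were in both own lists in 166 of 183 cases (90.7%, 85.6 to 94.1), the next in 77 of 184 (41.8%), then in 10 of 183 (5.46%), and the weakest in 7 of 184 (3.8%). Near introns ran from 94.2% to 7.31% and promoters from 97.6% to 8.51% over 4 groups by their own signals. In the strongest 100 members 97 were in both and in the last 100 there were 7. Median distance to a coding TSS was similar in the 4 groups, at 9574, 9450, 9589 and 9076 bp.

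Base composition at the summits differed from that around them. Windows at far intronic summits held 36.6% ± 9.87 G and C (SD, n = 734 summits), and the flanks 500 bp to either side averaged 40.5% ± 6.80. Over 292609 windows of eligible intron it was 40.3% ± 9.13. The paired difference was -3.82 points (normal-theory 95% interval -4.73 to -2.90), and 487 summits (66.3%) were below their flanks. With members taken from the own list of replicate 1 alone it was -7.62 points (-8.64 to -6.60), and from that of replicate 2 alone -3.78 (-4.96 to -2.61). It differed from that at near intronic summits by -1.15 points (-2.35 to 0.0631), an interval that includes 0. Over a finer profile of 51 bp windows, mean GC was 36.3% at the summit, rose to 43.4% and 44.8% at 200 bp to either side, and was 40.2% and 40.4% at 1000 bp. The dip thus sat between shoulders that were above the level further out.

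**Figure D4:**
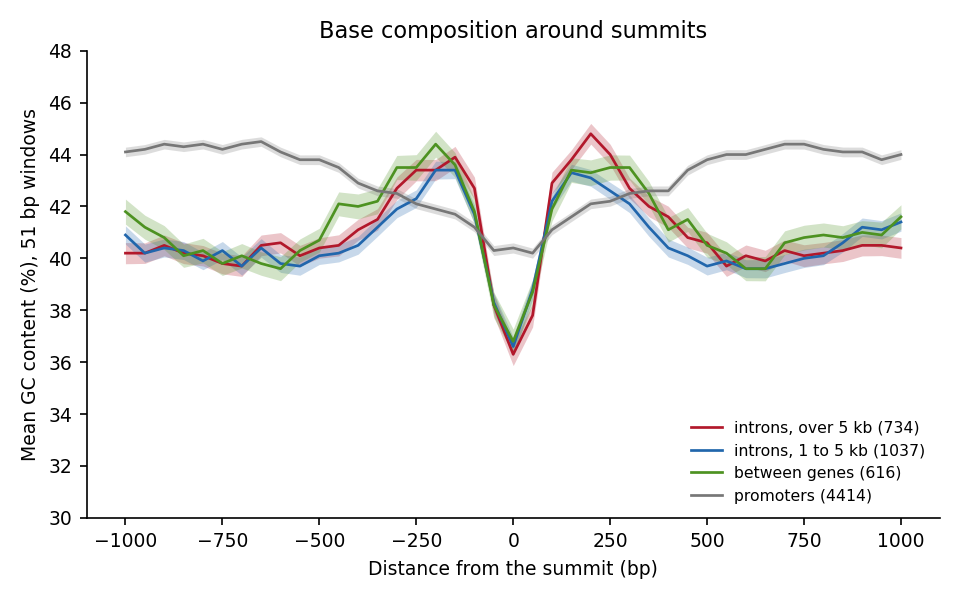
Mean GC content of 51 bp windows (lines, shaded ± SEM over peaks) by distance from the summit in 4 classes of peak. Far intronic summits dip to 36.3% between shoulders of 43.4% and 44.8% at 200 bp, and promoters start from a higher level.

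Peaks with more signal had the deeper dip. From the strongest to the weakest of the 4 groups the difference was -7.58 points (-9.14 to -6.03), -6.56 (-8.05 to -5.07), -3.71 (-5.55 to -1.88) and 2.56 (0.538 to 4.59), so the weakest group was richer in G and C than its flanks. Near introns went from -7.95 to 4.14 and promoters from -11.3 to 2.66. The weakest group holds the 24 peaks with a signal under 40 and is also the one with 3.8% of peaks in both own lists. The part of signal or replicate support in the GC difference was not tested.

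**Figure D5:**
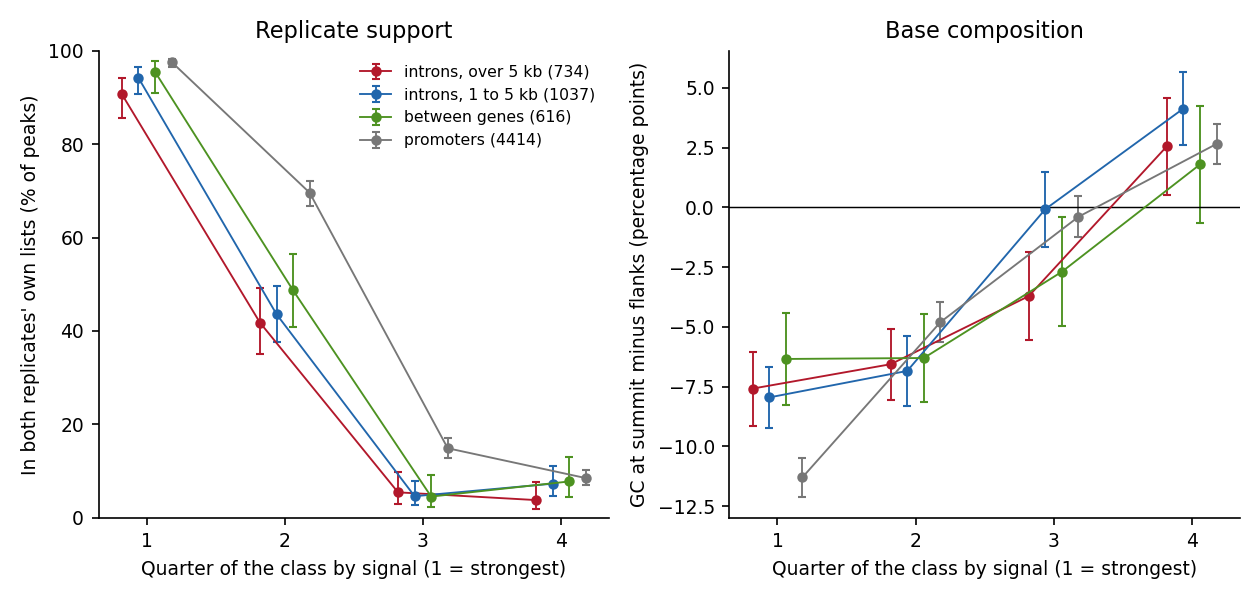
Share of peaks in both replicates' own lists (left, with Wilson 95% intervals) and GC at the summit minus flanks (right, with normal-theory 95% intervals) in 4 groups by signal within each class. In far introns the share falls from 90.7% to 3.8% and the GC difference goes from -7.58 to 2.56 points.

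Of 16 motifs searched, few were more frequent at far intronic summits than in their flanks. Flanks held more G and C (40.5%) than summits (36.6%) and were not matched for it, here or for the 7-mers below. The part of base composition in these differences was not tested. Searched on both strands within 50 bp of the summit, the odd-skipped family motif ACAGTAGC was at 3 summits (0.409%, against 0.272% of flanking windows and 0.185% of eligible intron windows) and its core CAGTAGC, which it contains, at 7 (0.954%, against 0.886% and 0.702%). TATCGATA, known from promoters of housekeeping genes, where DREF binds it, was at 1 (0.136%, against 0.0681% of flanks and 0.216% of eligible intron), and at 3.87% of promoter summits. TGTTTAC, the forkhead-type motif, was at 30 (4.09%, 2.88 to 5.77), against 2.18% of flanks and 1.93% of eligible intron, a difference from flanks of 1.91 points (0.411 to 3.71). At near intronic summits it was at 5.79% against 2.75% of flanks (3.04 points, 1.54 to 4.75), and between genes at 2.27% against 1.87% (0.406 points, -0.890 to 2.03), an interval that includes 0. GGTCACAC, a core promoter motif, was at 5 (0.681%, against 0.136% of flanks). The GAGA factor run GAGAGAG was at 10 (1.36%, against 2.66% of flanks), and differed from near introns by -0.181 points (-1.31 to 1.09). The summit-minus-flank difference of GGTCACAC was 0.545 points (0.0149 to 1.45). The intervals included 0 for ACAGTAGC, CAGTAGC, TATCGATA and GAGAGAG. They also included 0 for the remaining 10, which were the repeat CACACAC, the Zelda-type CAGGTAG, the GATA-type AGATAAG, the E-boxes CAGCTG as well as CACGTG, the homeodomain-type TAATTA, the octamer ATGCAAAT, the CRE-type TGACGTCA, the run AAAAAAAA plus the alternating ATATATAT. The most frequent of these were AAAAAAAA at 9.26% of summits (10.1% of flanks) and TAATTA at 6.13% (7.83%).

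Among all 7-mers, scored by their excess over the flanks, CAGTGTA led. It was at 26 summits (3.54%, 2.43 to 5.14), against 0.613% of flanks and 0.973% of eligible intron windows. Having been chosen for this difference, it carries no test here. In peak classes that did not enter the choice it was at 3.09% of near intronic summits against 1.01% of flanks (difference 2.07 points, 1.04 to 3.36), at 4.22% against 1.22% between genes (3.0 points, 1.47 to 4.95) and at 1.72% against 0.748% at promoters (0.974 points, 0.575 to 1.43). It was at 3 of 183 of the strongest far intronic peaks and at 23 of 551 of the others. GAAGATA, at 21 summits (2.86%, against 0.545% of flanks), had intervals of the difference that include 0 at near intronic (1.06% against 1.25%) and promoter summits (0.974% against 1.09%). Of the 10 leading 7-mers, 4 were built of A and T alone, such as ATATAAA at 75 summits (10.2% against 4.29%) and AAAATAT at 99 (13.5% against 7.08%).

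Among the 183 strongest members alone the leading 7-mer was AAATAGT, at 18 of 183 summits (9.84%) against 1.09% of their flanks and 2.55% of eligible intron windows. In the remaining members AAATAGT was at 16 of 551 (2.90%) against 2.09%. Summits of the 183 strongest held 33.5% G and C and their flanks 41.1%, which was not matched. Among the strongest of 4 signal groups of other classes, which did not enter the choice, it was at 6.56% of near intronic summits against 3.28% of flanks (3.28 points, 0.194 to 7.17), at 4.53% against 2.36% at promoters (2.18 points, 0.879 to 3.68), and at 4.55% against 3.57% between genes (0.974 points, -2.60 to 5.78). The last interval includes 0. A match to these letters is a description of the sequence and names no factor.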

How the data were processed

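The deposited files are peak lists of Sob-eGFP ChIP-seq in dm6 coordinates, per the labels. The authors' optimal list, 7002 peaks kept by their irreproducible discovery rate step, served as main list. Per the deposited file lists, it was derived from the alignments of both replicates and a control. The authors' conservative list was an alternative. Each replicate's thresholded list is called its own list, and its longer ranked list gave the replicate's signal, as the highest value among overlapping peaks. The deposited signal is the authors' value per peak, used as given. Which aligner and peak caller were run is not given in the sources used here, and the depth is unknown. Each replicate had its own list (4477 and 4626 peaks on the main arms).

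Summits were placed on Ensembl release 115 gene models (annotation version 6.54, without transposable elements), with sequence from RefSeq. Peaks overlapped at 1 bp or more. Shares carry Wilson, differences of shares Newcombe and densities exact Poisson 95% intervals. Flanks were both windows centred 500 bp away. All 7-mers were scored as summits minus the mean flank count, over the square root of that count plus 3. Python 3.11.15 with numpy 2.4.6, pandas 2.3.3 and scipy 1.17.1 was used, and the functions were tested on simulated data. There were no p-values, since 1 group was measured.

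Genes named are the 15 hosts with most summits, hosts of the 20 strongest members, the 10 densest hosts with at least 5 summits, up to 4 hosts per list, and the odd-skipped family, with the summits nearest the 5 kb limit. Any further gene is marked where it appears. Of the list genes, 1 matched no symbol. The members and the 12 gene lists were chosen with earlier results of these data known. Alternatives were other lists, limits, windows and overlaps, and each replicate's own list.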

Additional observations from a re-analysis of the deposited data

How the results depend on the processing

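Of 81 alternative values 52 stayed within the main interval, or within 1.5 times for counts and densities, and 29 moved further. No difference whose main interval excluded 0 changed sign. Of those with 0 in it, the far-minus-near difference in stronger peaks changed sign under 1 alternative and that in GAGAGAG under 5. With the conservative list there were 474 far intronic summits (1.55 per 100 kb), with 55.1% in both own lists, a GC difference of -5.96 points and 37.6% near another. With the stronger 50% of peaks these were 318 (1.04), 73.9%, -7.39 and 25.8%. Without replicate 1 or 2 the number was 417 to 478, the density 1.37 to 1.57, the share near another 31.2% to 39.1% and the GC difference -7.62 to -3.78. Each own list holds fewer peaks than the main list. Limits of 2500 and 10000 bp gave 1165 and 337 members, the latter with 37.4% near another. Overlap of 50% of both peaks lowered the share in both own lists to 25.9%. Windows of 100 bp to either side gave a GC difference of -1.95. Taking near as 2 or 10 kb gave 32.4% and 57.2%. Against promoters the share of the stronger peaks was -10.2 points. Some alternatives were chosen after seeing the data. Keeping only members with no stronger one within 5 kb gave 39.6% in both own lists, a GC difference of -5.0 and 4.57 points (-0.607 to 9.72) more of the stronger peaks than near introns, which were not thinned. Without peaks that overlap a stronger one, 42.2% had another near. Where no cause is named, the cause was not tested. No paired analysis was possible because there was 1 group.

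The depth is unknown, so weak peaks in 1 replicate cannot be told from missed ones.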
